A study of Mus musculus with 6 samples.

Results

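The genes described here encode the enzymes that write or erase methyl and acetyl groups on histones, and they were followed in whole ovaries of CD1 mice (an outbred stock) at postnatal day 21. Members were the rows of the expression table whose symbol names a lysine methyltransferase (Kmt, Setd, Setdb, Suv39h, Ehmt, Ezh, Dot1l, Nsd1, Ash1l), a methyltransferase subunit (Eed, Suz12, Ash2l), a lysine demethylase (Kdm), a lysine acetyltransferase (Kat, Ep300, Crebbp), a histone deacetylase (Hdac) or a sirtuin (Sirt). They numbered 75 of 16454 genes. The 40 writers comprised 27 methyltransferases, 3 subunits and 10 acetyltransferases, and the 35 erasers comprised 17 demethylases and 18 deacetylases, of which 7 were sirtuins. For 4 of the writers and 7 of the erasers, the main known substrates are proteins other than histones or small molecules, or are little known, so the medians of writers and erasers were also taken without them.

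The ovaries came from generation 3 (F3) of lineages founded by dams that received either DEHP, the plasticizer di(2-ethylhexyl) phthalate, at 20 µg/kg/day or the vehicle, tocopherol-stripped corn oil per the design text. Each lineage had 3 ovaries, each sequenced alone as polyadenylated RNA, and in this design only the founding dams were dosed. The labels name neither litters nor the number of founding dams, and p-values therefore rest on the spread among the 6 ovaries alone. The comparison asks whether transcript levels differ between descendants of dosed dams and descendants of vehicle dams.

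Histone methylation is read by its position, written as the histone and the lysine (K) that carries it. Methylation of H3K4 marks active promoters and enhancers, and that of H3K36 marks transcribed gene bodies. Methylation of H3K9 and H3K27 and trimethylation of H4K20 mark silent chromatin. Acetylation loosens the contact between histones and DNA and is found at active genes. In the growing oocyte several of these enzymes have known tasks: Kmt2b places most H3K4 trimethylation there, and Kdm1b removes H3K4 methylation so that maternal imprints can be set.

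Values were read counts scaled to library size (CPM) on a log2 scale, from which the authors had removed a surrogate variable, an estimated nuisance direction across libraries. What is left varies in 3 of the 4 directions that 6 ovaries in 2 groups allow, and the missing direction carried its largest weights, of opposite sign, on DEHP-lineage ovaries 1 and 3. Those 2 libraries correlated across genes at 0.998, against 0.978 to 0.989 for every other pair, and every SD below is of values left after this removal. Summed CPM per library ran from 979868 to 1026735, and the sequencing depth is unknown. All 10 oocyte, 8 granulosa and 6 theca markers were measured, as an ovary should show, and the 4 testis markers had no row. The estimates of all 10 oocyte, all 6 theca and all 6 smooth muscle markers were lower in the DEHP lineage, at medians of -0.225, -0.285 and -0.329 on the log2 scale. By limma 0 of them passed an adjusted p of 0.05, and an unadjusted p under 0.05 was reached by 2 oocyte, 0 theca and 4 smooth muscle markers. The summed level of the theca markers was 2780 to 3450 CPM in control ovaries and 2590 to 2670 CPM in DEHP-lineage ovaries, and that of the smooth muscle markers 1860 to 2070 CPM and 1460 to 1720 CPM. The estimates of the 4 measured erythroid markers were all higher, at summed levels of 65.4 to 126 CPM and 115 to 278 CPM. The summed level of the 6 adipocyte markers was 742 CPM in DEHP-lineage ovary 2 and 63.8 to 344 CPM in the others. The estimates of the 4 oviduct markers were all higher, at a median of 0.70, with summed levels of 11.6 to 16.8 CPM in control ovaries and of 13.8, 26.3 and 16.9 CPM in DEHP-lineage ovaries. DEHP-lineage ovary 2, the highest for both lists, was also the highest of the 6 in Kmt5c, Hdac10 and Sirt6. That ovary was the highest of its lineage in 34 of the 75 members (45.33%), near the 44.86% of all genes. In Kmt2d it was the lowest of its lineage. The part of these cell types in the enzymes' values was not tested. In RNA from whole ovaries, fewer cells of a type and less RNA per cell cannot be told apart.

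None of the 75 enzymes passed the test between the lineages after adjustment for multiple testing, and the enzymes with the smallest p-values were the methyltransferases Kmt2d and Kmt5c and the deacetylase Hdac10, all higher in the DEHP lineage by estimate. By limma with Benjamini-Hochberg adjustment over all genes, 0 members passed an adjusted p of 0.05, where 7 of 16454 genes (0.0425%) did, and the lowest adjusted p of a member was 0.385, that of Kmt2d. An unadjusted p under 0.05 was reached by 3 members (4%), Kmt2d, Kmt5c and Hdac10, which is less than the 8.78% of all genes that reached it. The lineages did not overlap, meaning that every ovary of one lay above every ovary of the other, in 13 members (17.3%) against 22.9% of all genes. Of these 13, 11 were higher in the DEHP lineage, 14.7% of members against 10.8% of all genes, and 2 were lower, 2.67% of members against 12.2% of all genes. The share with a small p and the total share with separated lineages were thus below those of the whole table, whereas the share separated and higher was above it. DEHP-lineage ovaries 1 and 3, which correlated at 0.998, count for less than 2 independent values in any such separation. This holds for members and for all genes alike.

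The differences were small, and most were bounded tightly. For 69 of the 75 members (92%) the 95% interval of the difference lay within 1.5-fold in both directions, a property of 59.9% of all genes. The median size of the log2 difference was 0.05 over the members and 0.12 over all genes. The members were also more abundant than the table as a whole, with a median level of 6.58 log2 CPM against 4.49, and varied less between ovaries of the control lineage, with a median SD of 0.096 against 0.149. Of the 6 members whose interval reached past 1.5-fold, 4 (Setdb2, Ehmt2, Kdm4d and Hdac9) had a mean level below 1 log2 CPM, and the others were Hdac10 and Kdm8.

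**Figure D1:**
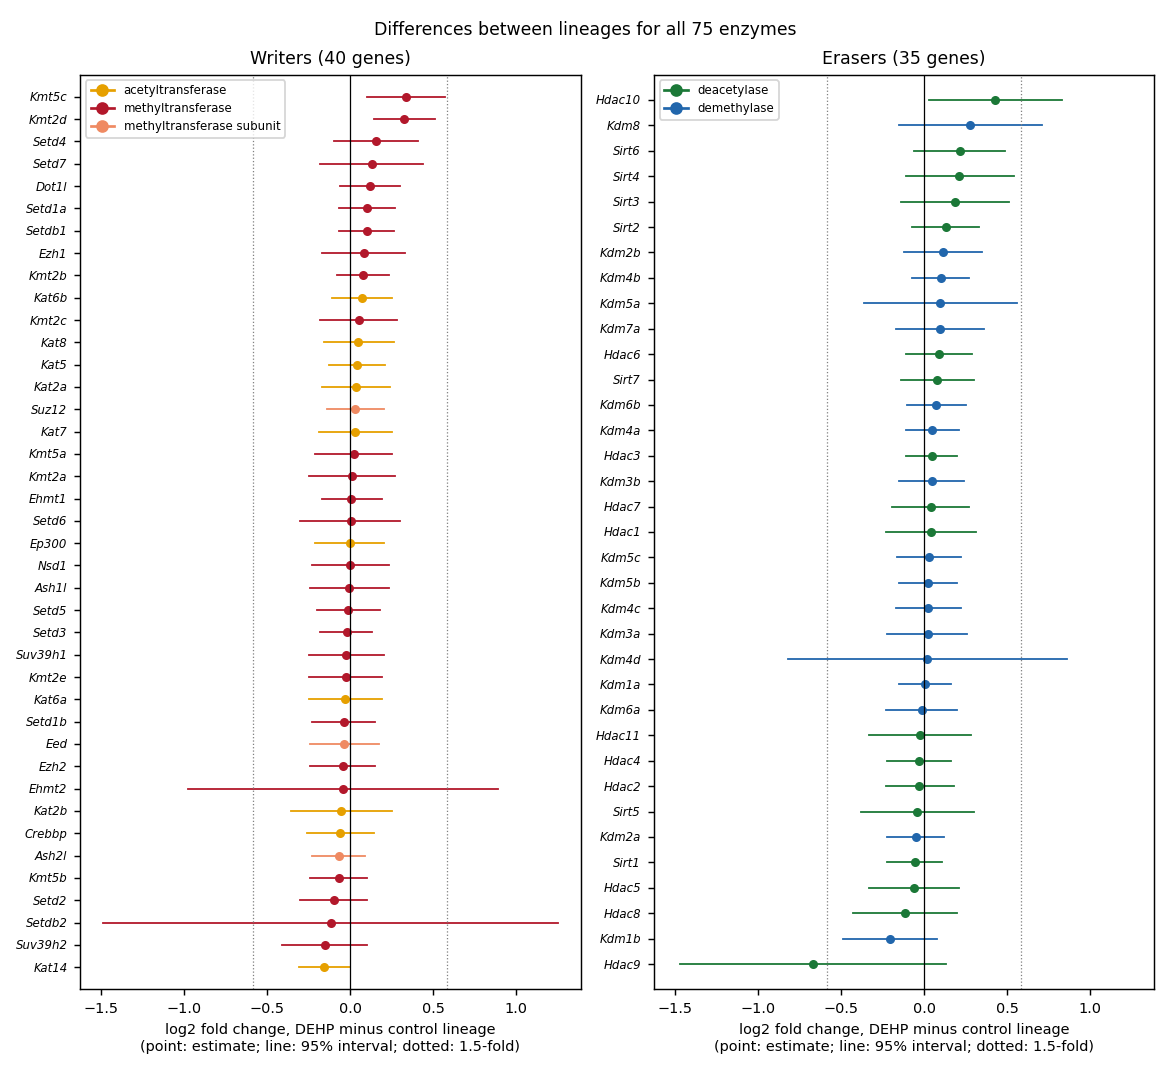
Log2 fold change of each of the 75 enzymes, DEHP minus control lineage, on the x axis, with genes in rows ordered by their estimate (point) with its 95% interval (line), writers on the left and erasers on the right. Most intervals span 0 and stay between the dotted lines at 1.5-fold, those of Kmt2d, Kmt5c and Hdac10 lie above 0, and the widest belong to the scarce transcripts Setdb2, Ehmt2, Kdm4d and Hdac9.

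Among the writers of H3K4 methylation, Kmt2d stood highest in the order of p-values. Kmt2d is the catalytic subunit of the complex that monomethylates H3K4 at enhancers, and its gene lies on chromosome 15 (98831669 to 98874077, GRCm38.p6). Its level was 318, 319 and 291 CPM in the 3 control ovaries and 398, 368 and 397 CPM in the 3 DEHP-lineage ovaries. The 3 DEHP-lineage ovaries were the 3 highest, with a gap between the lineages. On the log2 scale the difference was 0.325 (SE 0.080, 95% interval 0.14 to 0.51, n = 3 each), with an unadjusted p of 0.00427 and a limma adjusted p of 0.385. The authors' deposited table gives Kmt2d a log2 fold change of 0.32 with an adjusted p of 0.632.

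Kmt2c, the paralog that shares the enhancer task, had a log2 difference of 0.05 (95% interval -0.18 to 0.28). Kmt2c measured 188, 213 and 178 CPM in control ovaries and 213, 181 and 205 CPM in DEHP-lineage ovaries, and these ranges overlap. Per kilobase of exon, the ratio of Kmt2d to Kmt2c was 1.72, 1.53 and 1.66 in control ovaries and 1.90, 2.06 and 1.97 in DEHP-lineage ovaries, with no overlap. Because that ratio contains Kmt2d, it carries no evidence beyond the values of Kmt2d itself. Of 9 such paralog ratios, 2 did not overlap between the lineages.

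The promoter window of Kmt2d is shown beside those of Kmt5c, the other writer with an unadjusted p under 0.05, and Hdac9, the member with the largest estimated decrease, because the 3 differ in CpG content. Each is 200 bases long, from 250 to 51 bases before a RefSeq transcription start (GRCm38.p6), written 5′ to 3′ on the gene's strand with each CG dinucleotide in capitals. The windows are chr15:98871256-98871455 on the minus strand, chr7:4739877-4740076 on the plus strand and chr12:34917146-34917345 on the minus strand.
Kmt2d: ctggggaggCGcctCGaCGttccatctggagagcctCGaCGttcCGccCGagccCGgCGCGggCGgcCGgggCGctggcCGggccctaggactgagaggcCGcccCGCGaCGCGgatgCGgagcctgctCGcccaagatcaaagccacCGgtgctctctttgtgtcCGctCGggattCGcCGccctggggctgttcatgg
Kmt5c: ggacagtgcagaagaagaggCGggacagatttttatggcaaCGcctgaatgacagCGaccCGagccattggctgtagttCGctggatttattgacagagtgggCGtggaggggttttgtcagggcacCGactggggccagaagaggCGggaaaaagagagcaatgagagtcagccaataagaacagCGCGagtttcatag
Hdac9: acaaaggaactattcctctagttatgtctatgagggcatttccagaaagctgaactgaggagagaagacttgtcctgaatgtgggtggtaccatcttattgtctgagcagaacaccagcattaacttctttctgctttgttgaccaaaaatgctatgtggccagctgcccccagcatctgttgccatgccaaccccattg
The Kmt2d window holds 26 CpG, the Kmt5c window 10 and the Hdac9 window 0. The windows of Kdm4c and Setd5, with log2 differences of 0.025 and -0.012, also hold 0. That of Kat14, the other member lower without overlap, holds 16. Hdac10 had no promoter entry. Whether CpG content goes with the direction of a difference was not tested. Hdac9 has 2 starts in the RefSeq table, and the window is that of the outermost. RefSeq's record of Kmt2d extends further upstream than the start used here.

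The other H3K4 methyltransferases of the Kmt2 and Setd1 families had log2 differences from -0.04 to 0.10. Setd7, which methylates H3K4 and other proteins and is counted in the H3K4 sums, had a difference of 0.13. Its 95% interval was -0.18 to 0.44, and the lineages overlapped. Kmt2b, the writer of H3K4 trimethylation in oocytes, measured 154, 167 and 161 CPM in control ovaries and 171, 168 and 168 CPM in DEHP-lineage ovaries. The lineages did not overlap, but the control ovary highest in Kmt2b and the lowest DEHP-lineage ovary were nearly level, and the log2 difference was 0.08 (95% interval -0.08 to 0.23, limma adjusted p 0.784). Kmt2a (MLL1), known from leukaemia translocations, had a log2 difference of 0.01. Setd1a had one of 0.10 (limma adjusted p 0.717) and Setd1b one of -0.04. Setd1a shares 51.85% of its annotated exon bases with the overlapping same-strand model Gm49388, so its level is uncertain. Ash2l, the shared core subunit of these complexes, had a log2 difference of -0.07.

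Among the 3 writers of H4K20 methylation, Kmt5c had the smallest p. Kmt5c (Suv420h2), which trimethylates H4K20 in heterochromatin, lies on chromosome 7 (4740092 to 4747514). Its level was 51.1, 55.3 and 50.8 CPM in control ovaries and 61.1, 74.8 and 63.2 CPM in DEHP-lineage ovaries. All 3 DEHP-lineage ovaries lay above all control ovaries, and DEHP-lineage ovary 2 was the highest. The log2 difference was 0.335 (SE 0.100, 95% interval 0.10 to 0.57), with an unadjusted p of 0.0111 and a limma adjusted p of 0.48.

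Kmt5b (Suv420h1), the paralog of Kmt5c, had a log2 difference of -0.07 with overlapping lineages. The Kmt5b to Kmt5c ratio per kilobase was 0.591, 0.614 and 0.618 in control ovaries and 0.499, 0.408 and 0.474 in DEHP-lineage ovaries. It was lower in every DEHP-lineage ovary, and like the ratio of Kmt2d to Kmt2c it rests on the gene already described. Kmt5a (Setd8), which makes the monomethyl substrate for both, had a log2 difference of 0.02.

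**Figure D2:**
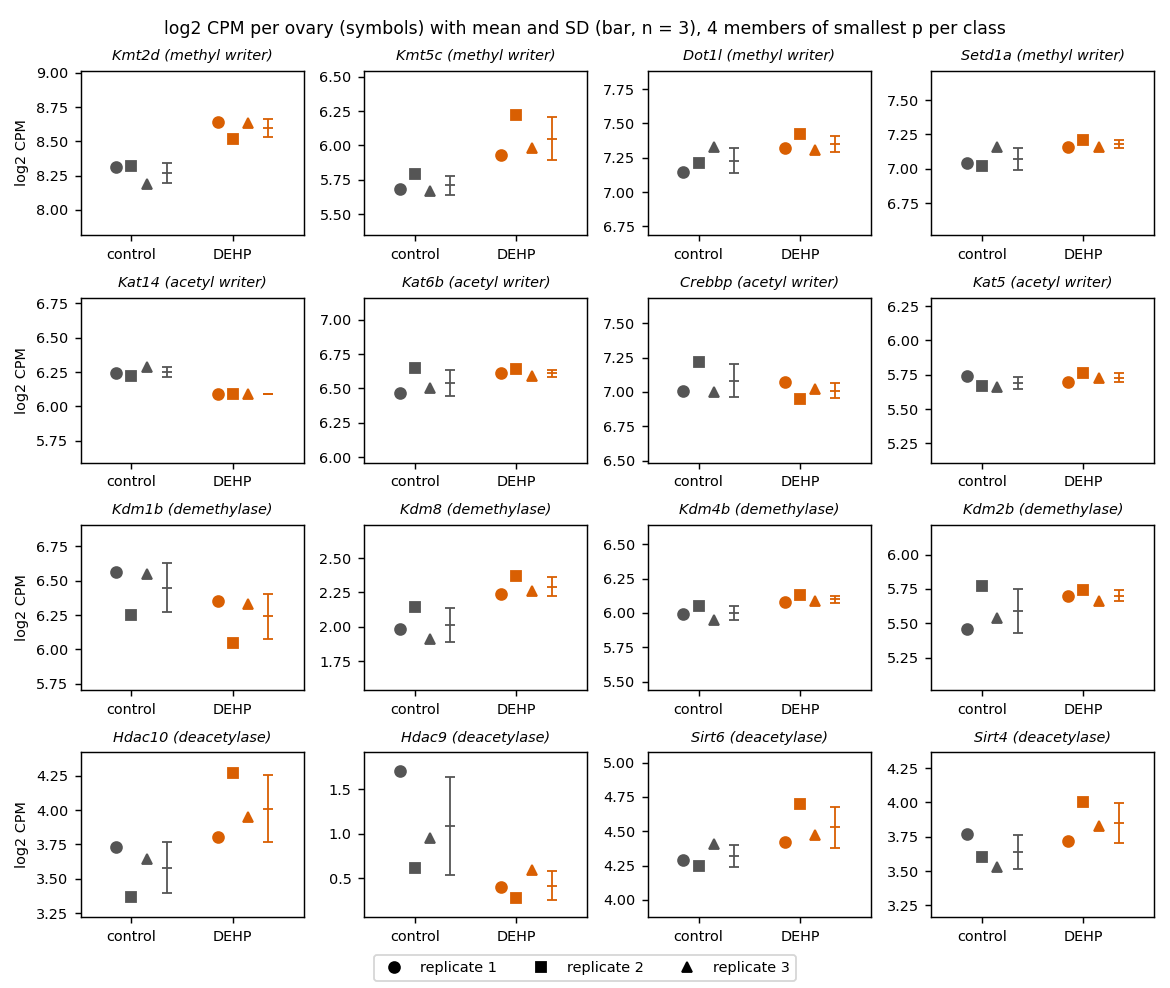
Log2 CPM in each ovary (y axis, a different range in each panel; x axis, lineage) for the 4 enzymes with the smallest p in each of 4 classes, with symbols for replicates and bars for the mean and SD of 3 ovaries. The lineages are apart in Kmt2d, Kmt5c, Kat14, Hdac10, Hdac9, Sirt6, Kdm8 and Kdm4b and interleave in the other panels.

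Of the 6 writers of H3K9 methylation, 2 had a higher and 4 a lower estimate. Setdb1, which silences retroelements together with Trim28, measured 116, 128 and 125 CPM in control ovaries and 131, 134 and 129 CPM in DEHP-lineage ovaries. These ranges were adjacent without overlap, and the log2 difference was 0.10 (95% interval -0.07 to 0.26, limma adjusted p 0.728). Suv39h1 and Suv39h2, which trimethylate H3K9 in pericentric heterochromatin, had log2 differences of -0.03 and -0.155 with overlapping lineages. Ehmt1, which dimethylates H3K9, had one of 0.01.

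Ehmt2 and Setdb2 were too scarce in this table for a comparison. Ehmt2, the partner of Ehmt1 in a heterodimer, was listed at 0.980, 0.484 and 0.648 CPM in control ovaries and 0.716, 0.510 and 0.767 CPM in DEHP-lineage ovaries. Ehmt1, by comparison, was listed at 105 to 117 CPM. Of the 31-base words of Ehmt2, 2.07% occur in another annotated gene, a count that leaves out sequence outside annotated transcripts. Why the listed level of Ehmt2 is so far below that of its partner was not tested. Setdb2 was listed at 0.188 to 0.620 CPM. It lies on chromosome 14 (59402009 to 59440880), wholly within a second protein-coding model, Gm45935, that has no row in the table.

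Polycomb repressive complex 2, the writer of H3K27 methylation, had differences near 0 in the 4 subunits counted among the enzymes. Its catalytic subunits Ezh2 and Ezh1 had log2 differences of -0.04 (95% interval -0.24 to 0.15) and 0.08 (-0.17 to 0.33). Its core subunits Eed and Suz12 had differences of -0.04 and 0.03. Among its partner subunits, the histone-binding Rbbp7 had a difference of -0.15 (limma adjusted p 0.665) and Aebp2 one of -0.065. Both were lower without overlap between the lineages, as were 12.2% of all genes. The partners Rbbp4, Jarid2, Mtf2, Phf1 and Phf19 lay between -0.049 and 0.078, all with overlap, and Phf1 and Phf19 had higher estimates. The ratio of Ezh2 to Ezh1 per kilobase averaged 1.35 ± 0.138 over control ovaries and 1.24 ± 0.181 over DEHP-lineage ovaries (SD, n = 3 each), which overlap.

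The 3 writers of H3K36 methylation and the H3K79 methyltransferase completed the methyl writers. Setd2, which trimethylates H3K36 behind RNA polymerase, had a log2 difference of -0.10 (95% interval -0.30 to 0.10). Nsd1 and Ash1l, which dimethylate the same residue, had differences of -0.004 and -0.005. Dot1l, the H3K79 methyltransferase, measured 142, 148 and 161 CPM in control ovaries and 160, 171 and 159 CPM in DEHP-lineage ovaries. Control ovary 3 lay within the DEHP-lineage range, and the log2 difference of Dot1l was 0.12 (limma adjusted p 0.696). The remaining methyltransferases (Setd3, Setd4, Setd5, Setd6 and Kmt2e), several of which act mainly outside chromatin, lay between -0.03 and 0.155. Of these, Setd4, a little-characterised enzyme, was separated, at 13.6, 13.3 and 13.1 CPM in control ovaries and 14.6, 15 and 14.8 CPM in DEHP-lineage ovaries (limma adjusted p 0.723). Setd3 shares 21.95% of its 31-base words with other genes.

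Acetyltransferases had small differences: 5 had a higher and 5 a lower estimate, all between -0.16 and 0.07 on the log2 scale. Ep300 and Crebbp, the paralogous coactivators that acetylate enhancers, had log2 differences of -0.001 and -0.06. Kat2a and Kat2b, the alternative catalytic subunits of the SAGA and ATAC complexes, had log2 differences of 0.03 and -0.06. The MYST-family enzymes Kat5 and Kat6b had differences of 0.04 and 0.07, with limma adjusted p-values of 0.899 and 0.828. Kat6a, Kat7 and Kat8, the other MYST-family members, lay between -0.03 and 0.05. Kat2b shares 14.55% of its 31-base words with other genes, chiefly the pseudogene Kat2b-ps.

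Kat14, a subunit of the ATAC complex, was the acetyltransferase with the smallest p. Its level was 75.7, 74.6 and 78.0 CPM in control ovaries and 68.3, 68.3 and 68.1 CPM in DEHP-lineage ovaries. Every DEHP-lineage ovary lay below every control ovary, and the lineages were clearly apart. The log2 difference was -0.16 (SE 0.067), with an unadjusted p of 0.0508 and a limma adjusted p of 0.569. The 3 DEHP-lineage values were nearly identical, and the part of the removed surrogate variable in this was not tested. Pet117, on the same strand, covers 14.75% of the exon bases of Kat14.

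Demethylases had mostly higher estimates. Of 17 demethylases 14 (82.35%) were higher and 3 lower, where 46.92% of all genes were higher. The median log2 difference of the demethylases was 0.03 beside -0.01 over all genes, and 0 reached an unadjusted p of 0.05. When any single ovary was left out, 11 to 13 of these 14 kept a higher estimate. All 7 erasers of H3K9 methylation (Kdm3a, Kdm3b, Kdm4a to Kdm4d and Kdm7a) had positive log2 differences, from 0.02 to 0.10. With quantile normalization 6 of the 7 were positive, and with single ovaries left out 5 or 6 were. Kdm4d turned negative with quantile normalization, at -0.084. Its mean level lay below 1 log2 CPM, and the 95% interval of its difference was -0.82 to 0.86. Kdm3b overlaps the opposite-strand model Gm26538 over 24.6% of its exon bases, and the strand setting of the counting is not known here.

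Kdm8 and Kdm4b were the 2 demethylases without overlap between the lineages. Kdm8 (Jmjd5), whose histone activity is debated, measured 3.93, 4.42 and 3.75 CPM in control ovaries and 4.72, 5.16 and 4.78 CPM in DEHP-lineage ovaries, all 3 above the controls. Its log2 difference was 0.28 (95% interval -0.15 to 0.71, limma adjusted p 0.702). Kdm4b, which removes H3K9 and H3K36 methylation, measured 63.5, 66.4 and 62.0 CPM against 67.6, 69.9 and 68.0 CPM. Those ranges were also separate, at a log2 difference of 0.10 (limma adjusted p 0.721). Kdm2b, which recruits a variant Polycomb complex to CpG islands, had a log2 difference of 0.11, and control ovary 2 was the highest of the 6 ovaries.

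Differences were near 0 for the demethylases Kdm1a, Kdm6a and Kdm6b. Kdm1a (Lsd1), which removes H3K4 methylation, measured 121 to 128 CPM in the control ovaries and 125 CPM in each DEHP-lineage ovary, a log2 difference of 0.01 (95% interval -0.15 to 0.16). Kdm6a and Kdm6b, the H3K27 demethylases, had log2 differences of -0.01 and 0.08. Kdm6a is 1 of 5 X-linked members, with Kdm5c, Suv39h1, Hdac6 and Hdac8, and the lineages overlapped in all 5. The Kdm5 family and Kdm2a lay between -0.05 and 0.10.

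Kdm1b (Lsd2), the H3K4 demethylase of the growing oocyte, had the most negative estimate among demethylases. Kdm1b measured 94.2, 75.9 and 93.5 CPM in control ovaries and 81.6, 66.4 and 80.3 CPM in DEHP-lineage ovaries. Replicate 2 was the lowest of each lineage, and control ovary 2 lay below 2 of the DEHP-lineage ovaries. The log2 difference was -0.21 (SE 0.122, 95% interval -0.49 to 0.08, limma adjusted p 0.669). It was -0.111 without DEHP-lineage ovary 2 and -0.309 without control ovary 2. None of the 10 oocyte markers had a higher estimate either: the median log2 difference was -0.225, and 0 passed an adjusted p of 0.05 by limma. Their summed level was 1510, 1200 and 1550 CPM in control ovaries and 1250, 1110 and 1250 CPM in DEHP-lineage ovaries, with the 2 replicates numbered 2 again the lowest and control ovary 2 below 2 of the DEHP-lineage ovaries, so that the lineages overlapped. Bmp15 and Gdf9, oocyte growth factors, had log2 differences of -0.35 and -0.31. What part the oocyte content of the samples has in the value of Kdm1b was not tested.

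**Figure D3:**
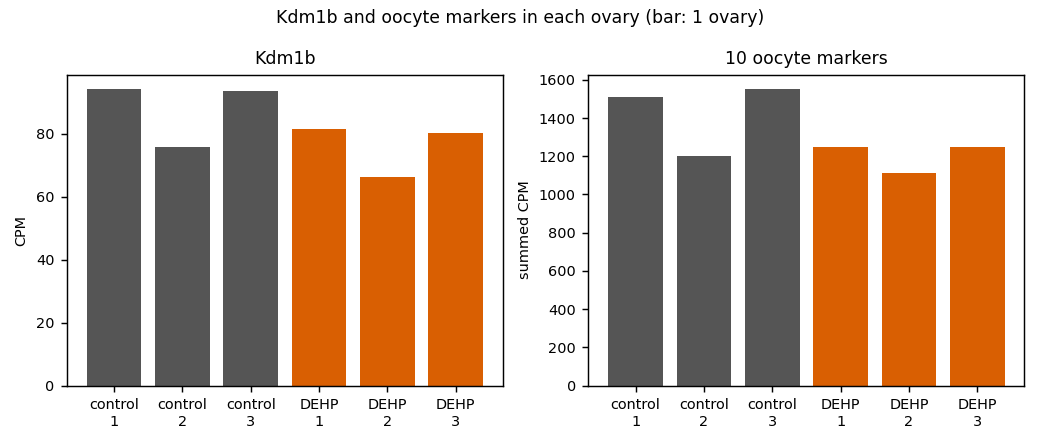
CPM of Kdm1b (left, y axis) and summed CPM of 10 oocyte markers (right, y axis), with 1 bar for each ovary of the control lineage and the DEHP lineage on the x axis. In both panels control ovaries 1 and 3 are the tallest and DEHP-lineage ovary 2 is the shortest.

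Among the deacetylases, 10 estimates were higher and 8 lower, and the largest in size were those of Hdac10 and Hdac9. Hdac10, a polyamine deacetylase of class IIb, lies on chromosome 15 (89123303 to 89128700). Its level was 13.3, 10.3 and 12.5 CPM in control ovaries and 13.9, 19.4 and 15.4 CPM in DEHP-lineage ovaries. DEHP-lineage ovary 1 and control ovary 1 were close, so the lineages were only just apart, and DEHP-lineage ovary 2 was the highest. The log2 difference was 0.43 (SE 0.171, 95% interval 0.03 to 0.83), with an unadjusted p of 0.0399 and a limma adjusted p of 0.558. The unadjusted p was 0.0637 without the mean-variance trend, 0.0852 without control ovary 2 and 0.0729 without DEHP-lineage ovary 2.

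Hdac9, a class IIa deacetylase that acts with the MEF2 transcription factors, had the largest estimate in either direction. Hdac9 was listed at 3.24, 1.54 and 1.94 CPM in control ovaries and 1.32, 1.21 and 1.51 CPM in DEHP-lineage ovaries. Control ovary 1 was far above the rest, and control ovary 2 was almost level with DEHP-lineage ovary 3. The log2 difference was -0.67 (SE 0.341, 95% interval -1.47 to 0.13, limma adjusted p 0.625), and it was -0.365 without control ovary 1.

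The class I deacetylases, the catalytic centres of the Sin3, NuRD, CoREST and NCoR complexes, had differences near 0. Hdac1 and Hdac2 had log2 differences of 0.04 and -0.03 with overlapping lineages. Hdac1 shares 39.97% of its 31-base words with other annotated genes, chiefly the model Gm10093, so its level is uncertain. The remaining Hdac enzymes (Hdac4, Hdac5, Hdac6, Hdac7, Hdac8 and Hdac11) lay between -0.12 and 0.09 with overlapping lineages. Hdac3, the enzyme of the NCoR complex, measured 83.8, 81.7 and 81.5 CPM in control ovaries and 85.2, 84.5 and 85.6 CPM in DEHP-lineage ovaries. These ranges did not overlap although the log2 difference was 0.05 (95% interval -0.11 to 0.20), and the 3 values within each lineage were very close together.

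Of the 7 sirtuins, the NAD-dependent deacylases, 5 (71.43%) had a higher and 2 a lower estimate, where 46.92% of all genes were higher. The median log2 difference of the sirtuins was 0.13. Sirt6, a nuclear enzyme of H3K9 deacetylation and DNA repair, measured 19.5, 19.1 and 21.2 CPM in control ovaries and 21.5, 26.0 and 22.1 CPM in DEHP-lineage ovaries. DEHP-lineage ovary 2 was the highest and the lineages were just apart, at a log2 difference of 0.22 (95% interval -0.06 to 0.49, limma adjusted p 0.646), and of 0.131 without DEHP-lineage ovary 2. Sirt2, mostly a cytosolic tubulin deacetylase, also did not overlap and had a log2 difference of 0.13 (limma adjusted p 0.704). The mitochondrial enzymes Sirt3, Sirt4 and Sirt5 had differences of 0.19, 0.21 and -0.04 with overlapping lineages. Sirt1, the nuclear enzyme most studied in metabolism and ageing, had one of -0.06 (95% interval -0.22 to 0.11), and Sirt7, its nucleolar relative, one of 0.08.

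Writers and erasers were then set against each other. Writers had a median log2 difference of 0.001, with 20 higher and 20 lower, and erasers one of 0.040, with 24 higher and 11 lower. A higher estimate was held by 50% of writers and 68.57% of erasers, beside 46.92% of all genes. The difference between the medians of writers and erasers was -0.039 and ranged from -0.075 to -0.011 when single ovaries were left out. Without the members whose main known substrates are not histones, or are little known, the medians were 0.002 and 0.028. Left out were Setd3, Setd4, Setd6, Kmt2e, Kdm8, Hdac6, Hdac10, Hdac11, Sirt3, Sirt4 and Sirt5. Sirt2, though mostly cytosolic, and the class IIa enzymes Hdac4, Hdac5, Hdac7 and Hdac9 stayed among the erasers. For scale, the median log2 deviation of each ovary from the gene means was taken over writers and over erasers. Its pooled SD between ovaries of a lineage was 0.034 for writers, 0.028 for erasers and 0.033 for writers minus erasers. That is a spread of single ovaries, not of a difference between lineages. No test was made of the medians of writers and erasers, because the enzymes were selected with results known and share the same 6 ovaries.

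In each ovary the writers together contributed about the same multiple of the erasers' transcripts. The summed CPM of writers divided by that of erasers was 1.955, 2.074 and 2.010 in control ovaries and 2.058, 1.990 and 2.025 in DEHP-lineage ovaries. The DEHP-lineage values all lay inside the control range. The means were 2.01 ± 0.0598 and 2.02 ± 0.034 (SD, n = 3 each), and per kilobase of exon both were 1.51.

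The balance within each mark also overlapped between the lineages. Methyl writers with their subunits over demethylases gave ratios of 2.441, 2.506 and 2.460 in control ovaries and 2.564, 2.416 and 2.526 in DEHP-lineage ovaries. Acetyltransferases over deacetylases gave 1.083, 1.226 and 1.183 in control ovaries and 1.129, 1.170 and 1.109 in DEHP-lineage ovaries. The H3K4 ratio was 2.341, 2.488 and 2.222 in control ovaries and 2.613, 2.420 and 2.579 in DEHP-lineage ovaries, where DEHP-lineage ovary 2 fell below control ovary 2. Its writer sum contains Kmt2d, at means of 309.5 and 387.6 CPM, so the ratio partly restates the values of that gene. The H3K9, H3K27 and H3K36 ratios had control means of 0.568, 1.17 and 1.76 and DEHP-lineage means of 0.552, 1.13 and 1.7, all with overlap. Per kilobase of exon, acetyltransferases over deacetylases averaged 0.883 in control and 0.855 in DEHP-lineage ovaries, so by that measure the deacetylases were the larger sum. The H3K36 ratio averaged 0.998 and 0.945, and methyl writers with subunits over demethylases 2.04 and 2.06.

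**Figure D4:**
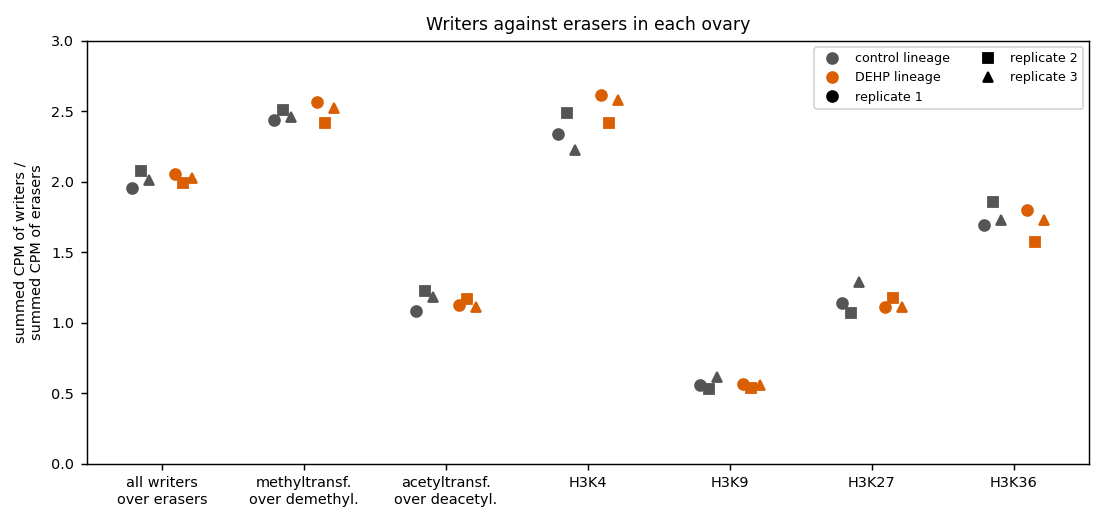
Summed CPM of writers divided by summed CPM of erasers (y axis, from 0) in each ovary, for all members, for methylation, for acetylation and for 4 histone positions (x axis), with colour for lineage and symbol for replicate. The lineages overlap in every column, with the H3K4 column, whose writer sum contains Kmt2d, coming nearest to a separation.

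The spread between ovaries had its own pattern within the control lineage. Control ovary 2 had the highest value of its lineage in 22 of 40 writers (55%) and in 36 of all 75 members (48%), against 33.79% of all genes. Among demethylases it was highest in 12 of 17, and among deacetylases in 2 of 18. With control ovary 2 left out, 12 members (16%) reached an unadjusted p of 0.05, beside 17.4% of all genes, and with control ovary 3 left out 8 members (10.7%) did, beside 15%. With control ovary 1 left out the count was 6 (8%), beside 15.9%. In each case the members' share stayed below that of the table, and 0 members passed an adjusted p of 0.05.

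Levels of different genes were compared as CPM per kilobase of annotated exon. By the union of exons Hdac2 was the most abundant member, at 48.2 ± 1.95 in control ovaries against 47.4 ± 4.07 in DEHP-lineage ovaries (mean ± SD, n = 3 each). Kdm5c, an X-linked H3K4 demethylase, followed at 38.0 ± 1.91 and 38.8 ± 2.27, then Kmt5a at 36.3 ± 3.37 and 36.8 ± 2.77, and then Kat2a at 33.1 ± 3.0 and 33.8 ± 1.27. By this length the ranges of Kmt5a overlapped with those of both Kdm5c and Kat2a, while Hdac2 lay above all 3 in both lineages. All were measured in the same ovaries, and within each ovary Kmt5a lay above Kat2a. The order of Kmt5a and Kdm5c was not the same in every ovary. Suz12 (26.4 and 26.9) was the most abundant methyltransferase subunit.

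At the low end of the scale per kilobase were Setdb2 (0.112 and 0.0959), Ehmt2 (0.128 and 0.121), Hdac9 (0.153 and 0.0918), Kdm4d (0.313 and 0.329) and Kdm5a (0.641 and 0.694), in control and DEHP lineage. Kdm4d shares 14.86% of its 31-base words with other genes, chiefly its copy Kdm4dl. Within paralog pairs, Hdac2 exceeded Hdac1 by a ratio of 3.05 over control ovaries and 2.90 over DEHP-lineage ovaries, Kat2a exceeded Kat2b by 2.89 and 3.03, and Suv39h1 exceeded Suv39h2 by 1.87 and 2.04. Ep300 stood at 1.19 and 1.25 times Crebbp. Hdac1 and Kat2b share sequence with other genes, as given above, so the ratios over them are uncertain. Kdm6b stood at 1.17 and 1.25 times Kdm6a, an order that turned around, to 0.898 over the 6 ovaries, when the longest transcript served as the length. By the longest transcript Hdac2 over Hdac1 was 2.42, Kat2a over Kat2b 3.01, Suv39h1 over Suv39h2 3.24 and Ep300 over Crebbp 1.45. With that length Kmt5a came first at 70.8 and Hdac2 followed at 65.8. Of the 10 most abundant members 7 were the same, and the rank correlation over the 75 members was 0.89.

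**Figure D5:**
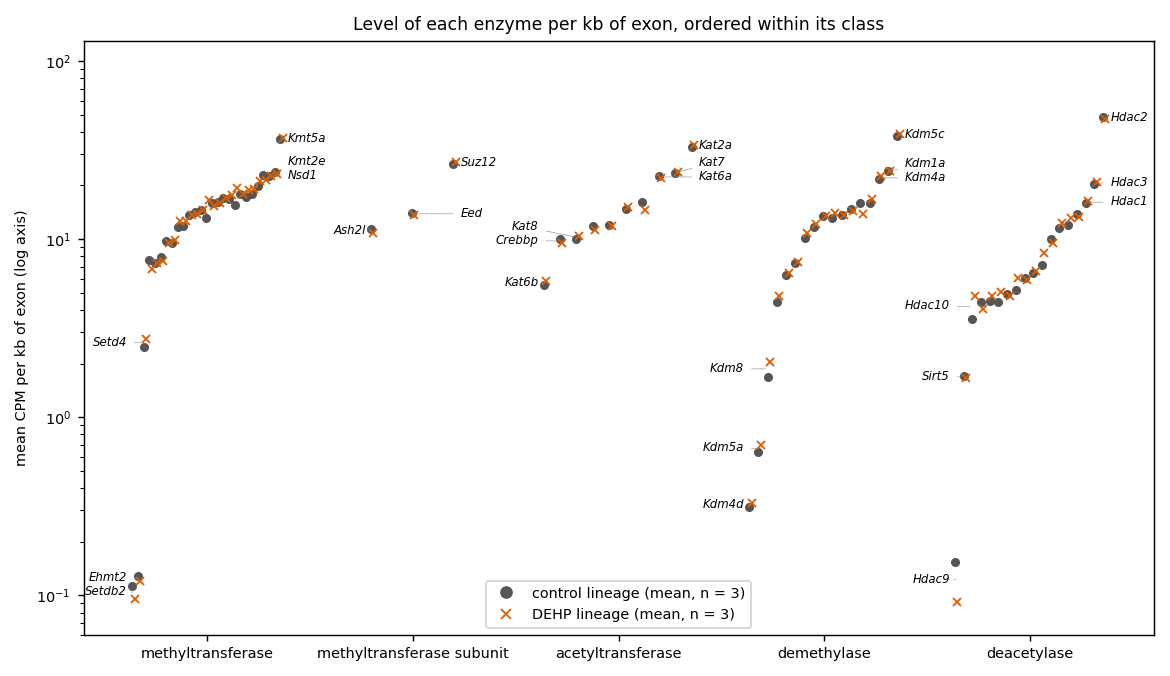
Mean CPM per kilobase of exon (log y axis) of the 75 enzymes, ordered within 5 classes (x axis), with a circle for the control lineage and a cross for the DEHP lineage (each the mean of 3 ovaries) and names at the ends of each class. Circle and cross nearly coincide for most genes, and the clearest gaps are at Hdac9 and Hdac10.

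Genes that work with these enzymes were read from the same fit. Of 97 partner subunits, readers and cofactor enzymes listed, 90 were measured, 36 with a higher and 54 with a lower estimate, at a median log2 difference of -0.01. None passed an adjusted p of 0.05 by limma (lowest 0.382), and 6 (6.67%) had an unadjusted p under 0.05, beside the 8.78% of all genes given above. The lineages did not overlap in 21 of them (23.3%), near the 22.9% of all genes. Of these, 5 (5.56%) were higher, where 10.8% of all genes were, and 16 (17.8%) lower, where 12.2% were. Acly, which makes the acetyl-CoA that acetyltransferases use, had values of 8.17, 8.16 and 8.14 log2 CPM in control ovaries and 7.86, 7.92 and 7.88 in DEHP-lineage ovaries. The lineages were clearly apart, at a log2 difference of -0.27 (95% interval -0.43 to -0.12, limma adjusted p 0.382). Ing1, a reader of H3K4 methylation in Sin3 deacetylase complexes, had a difference of -0.32 (limma adjusted p 0.455), and Mat2b, a regulatory subunit of the enzyme that makes the methyl donor S-adenosylmethionine, one of -0.19. Brd2, a reader of acetylated histones, was the only one of the 6 with a higher estimate, at 1.28 (95% interval 0.34 to 2.21), and was listed at -1.14 to 0.90 log2 CPM. Like that of Ehmt2, this listed level is low, its cause was not tested, and the difference of Brd2 depends on the unknown prior count.

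The promoters of the enzymes were read as sequence only, and factor binding and DNA methylation were not analysed here. A RefSeq promoter entry was found for 60 of the 75 members and for 12482 of all genes. The dinucleotide CG occurred at least 10 times in the 200-base window of 38 members (63.33%), 69.7% of writers and 55.56% of erasers, against 51.89% of all genes. The window of Kmt2d, with 26, and that of Kmt5c, with exactly 10, both reach this number, and that of Hdac9, with none, does not. CG reads the same on both strands, and the count is a description of these windows.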

How the data were processed

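Polyadenylated RNA of 6 whole ovaries (3 per lineage) was sequenced from one end with a strand-marking kit, per the labels' protocols. The submitters' processing notes name Trimmomatic 0.36, STAR 2.5.3a, featureCounts of Subread 1.5.2, R 3.4.3 and edgeR 3.20.5, on GRCm38.p6. The authors deposited log2 CPM per ovary with a surrogate variable removed, as the table's name says, and their own p-values and FDR. The depth is unknown, and the prior count, strand setting and handling of multiply mapped reads were not given in the sources used here.

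Differences were tested on the deposited log2 values with limma 3.58.1 (R 4.3.3, mean-variance trend, two-sided), with the missing direction as a covariate, which left 3 residual degrees of freedom, and Benjamini-Hochberg adjustment over all 16454 genes at a threshold of 0.05. The procedure was tried on simulated data with planted differences larger than that of any member, so the trial does not cover differences of the members' size. CPM are 2 to the power of the deposited values. Lengths and shared 31-base words came from GENCODE vM21, positions and promoters from RefSeq, both of GRCm38. The enzymes, roles, marker lists and partner list were chosen with earlier results of these data known. Named were the 4 enzymes of smallest p per class, 29 enzymes whatever their values and the 3 highest and lowest per kilobase of each class, with others as counts; further enzymes without overlap between lineages, and those with shared sequence, were named after their values were seen. Alternatives were other scalings, covariates and filters, an averaged pair and single ovaries left out.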

Additional observations from a re-analysis of the deposited data

How the results depend on the processing

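No member passed an adjusted p of 0.05 under any of the 13 alternatives, and the lowest adjusted p of a named member was 0.122 (Kmt2d without DEHP-lineage replicate 2, limma). Over the whole table the 7 genes became 20 without the missing direction as a covariate, 3 with quantile normalization, 3 with median centring and 1 without the mean-variance trend. Leaving out single ovaries gave 2 to 35 genes. Members at an unadjusted p under 0.05 numbered 3 to 12 over the same fits, the writers' median log2 difference ran from -0.028 to 0.039, and the difference of the medians, writers minus erasers, from -0.075 to -0.011. The cause of these shifts was not tested, beyond the fewer samples in each fit. Of 52 named members 24 kept their sign in every alternative, and up to 11 changed it in a single one, all of them uncalled.

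No paired result is reported, because the labels give replicate numbers without saying that they pair the ovaries. The deviations of same-numbered ovaries correlated at -0.327, -0.00343 and -0.198. These deviations are taken from the mean of each lineage and lack the removed direction, so the correlations cannot decide whether the ovaries were paired. With the replicate block 6 genes and 0 members were called, and 3 members had an unadjusted p under 0.05, with Kdm1b (0.0171) in place of Hdac10 (0.0528). In a fit with 1 ovary left out, 2 ovaries stood for that lineage. Low transcripts such as Setdb2, Ehmt2, Kdm4d and Hdac9 have wide intervals, and their differences depend on the unknown prior count.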
